A study of Drosophila melanogaster with 4 samples.

Results

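The regions described here are the sites in Drosophila melanogaster S2 cells, outside chromosome X, where CP190 was called and neither Ibf1 nor Ibf2 was called. The peaks of 3 antibodies were pooled, intervals sharing at least 1 bp were merged, and a merged region was kept if it held a CP190 peak, held no peak of CG8436 (Ibf1) or CG9740 (Ibf2) and did not lie on X. The regions were thus selected on the peak positions of all 3 lists. This gave 1187 regions of 2233 in the series, each holding a single CP190 peak. They made up 68.5% of the 1734 regions off X that held CP190. The other 547 held CP190 with an Ibf peak, 464 of them with both Ibf proteins and 83 with Ibf2 alone. These counts follow from the selection itself and carry no test.

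All libraries came from S2 cells, a single cultured line of embryonic origin, with no treatment named in the labels. Chromatin immunoprecipitation followed by sequencing was done with 1 library per antibody, using rabbit polyclonal antibodies for CP190 and rat polyclonal antibodies for each Ibf protein. The series also holds 1 Input library of genomic DNA, and its use in peak calling is not given in the sources used here. The lists hold 2067 CP190, 618 Ibf1 and 787 Ibf2 peaks as positions in the dm3 genome build, with no height, score or read count. The depth of each library is therefore unknown, no difference has a replicate check, and "without Ibf" means that no Ibf peak was called.

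Insulators are DNA elements that keep an enhancer from acting on the wrong promoter and mark borders between chromatin domains. CP190 is a zinc finger protein with a BTB domain that is brought to many fly insulators by DNA-binding partners, among them CTCF, Su(Hw) and BEAF-32. Ibf1 and Ibf2 are further DNA-binding partners of CP190 that also bind each other. A CP190 region without either Ibf protein is thus a site in this map for which neither of these partners was called, and the lists do not say which other partner, if any, was present.

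The label "autosomal" holds for nearly all of these regions. On the arms 2L, 2R, 3L, 3R and 4 lay 1170 of the 1187, and 1167 of these were on the 4 large arms. Of the remaining 17, 13 lay in U or Uextra, sequence not assigned to any chromosome, and 4 in the heterochromatin scaffolds 2RHet, 3LHet and 3RHet. U and Uextra are made of scaffolds joined in arbitrary order, so a distance there is not a distance along a chromosome.

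CP190 regions without Ibf made up a similar share of the CP190 regions on each large autosome arm. Arm 2L held 256 of them among its 361 CP190 regions, a share of 70.9% (95% exact interval 65.9 to 75.5). Arm 2R held 276 of 396 (69.7%, 64.9 to 74.2). Arm 3L held 285 of 413 (69.0%, 64.3 to 73.4). Arm 3R held 350 of 495 (70.7%, 66.5 to 74.7). The 4 intervals overlap throughout, so no difference between large arms was detectable with these counts. Per Mb of the span covered by the peaks of any list, the density ranged from 11.6 on 2L to 13.2 on 2R, and that of CP190 regions with Ibf from 4.74 on 2L to 5.73 on 2R.

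The small chromosome 4, a largely heterochromatic autosome, and Uextra held few CP190 regions without Ibf. On chromosome 4, 3 of 13 CP190 regions lacked Ibf (23.1%, 5.04 to 53.8), and the upper end of this interval lies below the lower end for each large arm. In Uextra 7 of 37 lacked Ibf (18.9%, 7.96 to 35.2), and in U 6 of 10 did (60.0%, 26.2 to 87.8). The density on chromosome 4 was 2.57 per Mb, against 8.58 per Mb for CP190 regions with Ibf. The 3 regions on chromosome 4 were at 427491 to 427768 (278 bp), 436108 to 436439 (332 bp) and 718153 to 718368 (216 bp), and their nearest Ibf peaks were 9.32, 0.651 and 24.2 kb away. The nearest Ibf region in each case held Ibf2 without Ibf1.

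**Figure D1:**
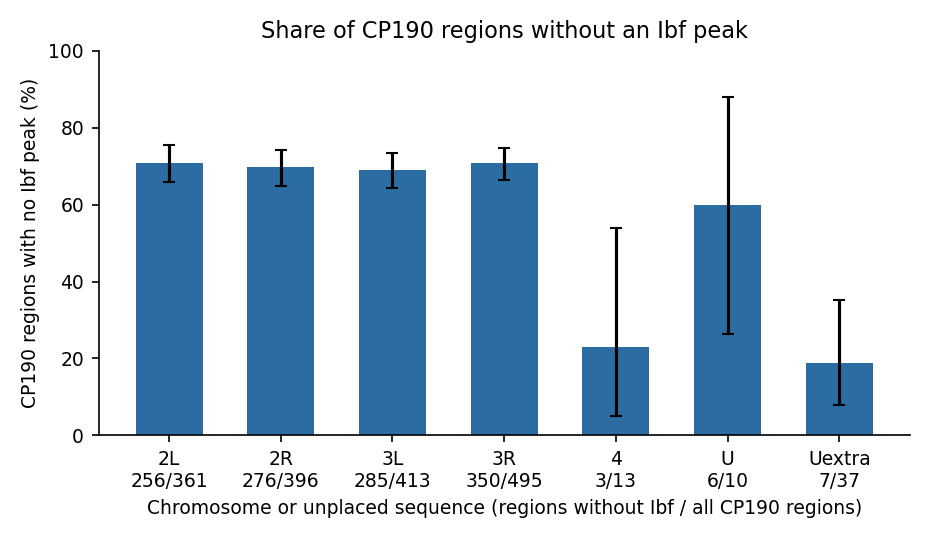
The bars show the percentage of CP190 regions off X that held no Ibf peak, by arm or unplaced sequence, and the lines give 95% exact binomial intervals (counting error only). The 4 large arms lie between 69.0% and 70.9%, while chromosome 4 stands at 23.1% and Uextra at 18.9%.

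Windows of 1 Mb were laid along the 4 large arms, leaving out the last window that peaks reached on each arm. Each of the 93 windows counted held at least 1 CP190 region without Ibf. The windows left out on 2R and 3L held CP190 regions with Ibf and none without. The median was 13 (interquartile range 9 to 15). The highest count was 27, in the first Mb of 2L, where 5 CP190 regions had Ibf. The next was 26 on 2R between 3 and 4 Mb, beside 9 with Ibf. The lowest counts among the 93, 1 in each window, were in the first and the following Mb of 2R. Regions without Ibf outnumbered those with Ibf in 81 windows, were outnumbered in 8 and tied in 4. In the window of 3R between 12 and 13 Mb they were outnumbered by 15 to 11, and this window held the highest count of CP190 regions with Ibf among the 93.

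Most CP190 regions without Ibf lay far from any Ibf site. The median distance from the edge of the CP190 peak to the edge of the nearest Ibf1 or Ibf2 peak was 52.2 kb (95% order-statistic interval 47.7 to 57.1, n = 1186), with quartiles of 21.1 and 107.5 kb. The region in 3LHet had no other peak on its sequence and has no distance. An Ibf peak lay within 1 kb of 21 regions (1.77%), within 10 kb of 140 (11.8%) and within 100 kb of 860 (72.5%). For all CP190 regions off X, counting the Ibf peaks of other regions, the shares were 2.14% within 1 kb, 12.7% within 10 kb and 73.3% within 100 kb. For regions that had an Ibf peak of their own, the median distance to the Ibf peak of another region was 45.4 kb (38.5 to 51.9, n = 547). This interval overlaps that of the regions without Ibf. On single arms the median for regions without Ibf was 40.0 kb on 2R, 53.7 kb on 2L, 56.4 kb on 3L and 59.6 kb on 3R.

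The regions nearest to an Ibf peak lay just inside the limit of the selection. The closest was in U at 6833314 to 6833409, a CP190 peak of 96 bp whose end lay 40 bp before an Ibf1 and Ibf2 region. The next, on 3L at 16044054 to 16045153, is also the widest region of the class at 1100 bp, and an Ibf1 and Ibf2 region began 76 bp beyond it at 16045229. On 2L, CP190 peaks of 55 bp at 18119842 to 18119896 and of 40 bp at 2834836 to 2834875 lay 85 and 128 bp from Ibf2 peaks without Ibf1. On 2R at 13381160 to 13381314 a CP190 peak of 155 bp lay 169 bp from an Ibf peak. Among regions with Ibf, the smallest shared stretches were 1 bp on 3L at 15547406 to 15547669 and on 3R at 13846918 to 13847402. They were 2 bp on 2R at 5196171 to 5196470 and on 3R at 24497925 to 24498306, and 3 bp on 2L at 833202 to 833506. In each of these the CP190 peak was as wide as the merged region, so any Ibf peak there lay wholly inside it. The shared stretch had a median of 265 bp (interquartile range 170 to 315) over the 547 regions with Ibf. It is limited by the narrower peak, so a small value need not mean a borderline site. When an Ibf peak counted only from 50% of the shorter peak, the class held 1190 regions, beside 1187 under the rule.

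The nearest Ibf site was usually a CP190 site itself. It held CP190 for 926 of 1186 regions (78.1%, 75.6 to 80.4), and 77.9% of all 702 Ibf regions off X held CP190. It held both Ibf proteins for 872 regions (73.5%, 70.9 to 76.0), Ibf2 alone for 304 (25.6%) and Ibf1 alone for 10, where these kinds made up 77.6%, 21.7% and 0.712% of the Ibf regions. Among the 8 regions within 500 bp of an Ibf peak, the Ibf site lacked CP190 in 6. Among the 13 between 500 bp and 1 kb it lacked CP190 in 1. No CP190 region without Ibf had another CP190 peak closer than 316 bp off X, and the part of this spacing in the counts near Ibf sites was not tested.

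**Figure D2:**
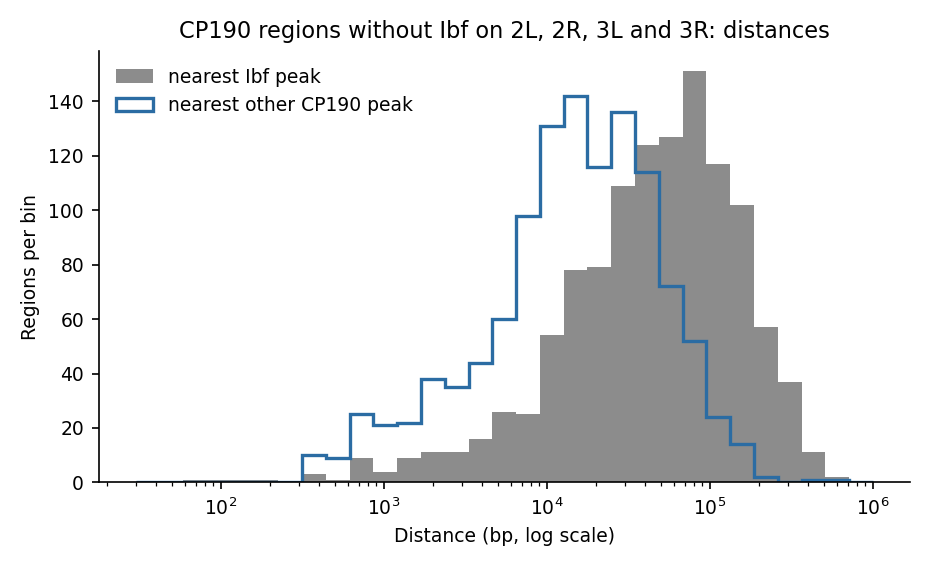
The histogram gives the number of CP190 regions without Ibf on the 4 large arms by distance in bp (log scale) to the nearest Ibf peak (grey) and to the nearest other CP190 peak (blue line). The CP190 distances centre on about 15.6 kb and the Ibf distances on about 51.7 kb, the medians on these arms.

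Regions at the far end of this range stood in long stretches without Ibf. Among the autosome arms the most distant was on 2R at 943173 to 943204, a peak of 32 bp with 621.2 kb to the nearest Ibf peak and 621.2 kb to the nearest other CP190 peak. It is the sole region of the class in an interval of 1357 kb between Ibf sites at the start of 2R. On 3R the regions at 14392593 to 14392871 and at 14333460 to 14333790 were 529.1 and 486.3 kb from an Ibf peak, yet 58.8 kb from each other. On 2L at 22179546 to 22180121 a peak of 576 bp was 495.6 kb from Ibf and 421.9 kb from other CP190 peaks. On 3L at 12059830 to 12060076 the distances were 456.9 and 58.6 kb. Isolation from Ibf therefore went with isolation from CP190 at 943173 on 2R and at 22179546 on 2L and not at the other sites named.

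CP190 regions without Ibf filled the intervals between Ibf sites unevenly. The Ibf regions on the 4 large arms bound 633 intervals that held 1160 regions of the class. No such region lay in 244 intervals (38.5%), 1 lay in 133 (21.0%), 2 to 4 lay in 178 (28.1%) and 5 or more lay in 78 (12.3%). Those 78 intervals together held 555 of the 1160 (47.8%). Longer intervals held more: the median length was 31.2 kb for intervals with none and 374.0 kb for those with 5 or more. The highest count was 13, on 3L between an Ibf region ending at 6757253 and one starting at 7752252, a stretch of 995.0 kb. A stretch of 1141 kb on 3L from 11602885 to 12743923 held 12, and one of 825.2 kb near the end of the same arm, from 22975535 to 23800685, held 0.

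**Figure D3:**
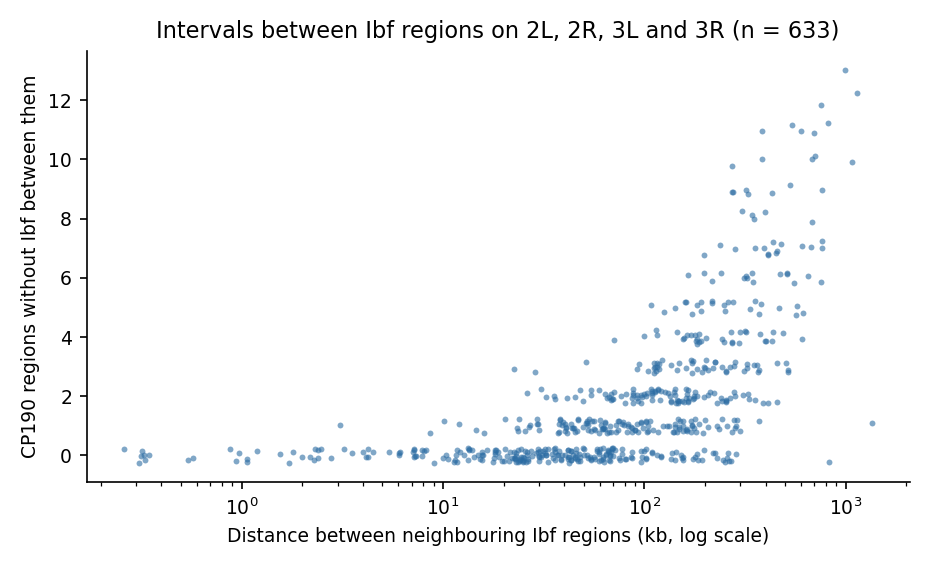
Each point is an interval between neighbouring Ibf regions on the 4 large arms, with its length in kb (log scale) on the x axis and the number of CP190 regions without Ibf inside it on the y axis (whole numbers, shifted slightly to separate points). Counts of 5 or more occur in 78 of 633 intervals, at a median length of 374.0 kb, and the points at 1357 kb with 1 region and at 825.2 kb with 0 stand apart at the lower right.

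Runs of these regions, uninterrupted by a CP190 region with Ibf, were mostly short. As 70.1% of CP190 regions on the large arms lacked Ibf, such runs arise in any order of the regions, and nothing particular to the class is read from them. The 1170 regions on 2L, 2R, 3L, 3R and 4 formed 331 runs with a mean of 3.53 regions and a median of 2. A single region made up 94 runs, and 16 runs of 10 or more held 186 regions. The longest runs, of 17 each, were on 3L. One spanned 792.7 kb from 7804759 to 8597434 and the other 1325 kb from 11674897 to 12999947, with 1 and 2 Ibf regions lacking CP190 inside them. A run of 14 on 3L spanned 763.4 kb from 6740370 to 7503798, with 1 Ibf region lacking CP190 inside it. A run of 12 on 3R spanned 615.7 kb from 16078147 to 16693837 with no Ibf region inside. Both neighbouring CP190 regions also lacked Ibf for 602 of 1164 regions on the large arms (51.7%, 48.8 to 54.6), 1 of them did for 469 (40.3%) and neither did for 93 (7.99%). Over all CP190 regions on these arms, with or without Ibf, the shares were 49.2%, 41.9% and 8.87%, close to those of the class. The class makes up most of that set, so closeness is in part built in. Regions with Ibf were not set apart here.

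The nearest CP190 neighbour lacked Ibf about as often as it did for CP190 regions in general, most of which belong to the class. For CP190 regions with Ibf it did so less often. On the 4 large arms it lacked Ibf for 854 of 1167 regions without Ibf (73.2%, 70.5 to 75.7), and for 70.9% of all CP190 regions on these arms, a share within that interval. For CP190 regions with Ibf the share was 327 of 498 (65.7%, 61.3 to 69.8), an interval that does not overlap that of regions without Ibf. The difference between the classes was not tested, since neighbours count each other and regions of 1 library are not replicates. Off X as a whole it lacked Ibf for 862 of 1186 regions without Ibf (72.7%), beside 69.1% of all CP190 regions, and where it lay within 10 kb for 305 of 408 (74.8%), beside 71.1%. Of the regions without Ibf, 580 formed 290 pairs in which each was the other's nearest CP190 site. Such pairs were not counted among other CP190 regions, so nothing particular to the class is read from them.

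CP190 regions without Ibf stood closer to other CP190 peaks than to Ibf peaks, a difference fixed in part by the selection, which removed every site that touched an Ibf peak. Off X the median distance from a region without Ibf to the nearest other CP190 peak was 15.7 kb (14.3 to 17.2, n = 1186), with quartiles of 7.20 and 34.3 kb. On the 5 autosome arms the nearest other CP190 peak was closer than the nearest Ibf peak for 972 of 1170 regions (83.1%, 80.8 to 85.2). The CP190 list is longer than both Ibf lists, and the comparison takes no account of that. This share was not computed for CP190 regions with Ibf, so it is not read as particular to the class. Another CP190 peak lay within 1 kb of 53 regions (4.47%), within 10 kb of 408 (34.4%, 31.7 to 37.2) and within 50 kb of 1020 (86.0%). Over all CP190 regions off X these shares were 4.27%, 32.3% and 83.7%.

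Regions without Ibf had slightly closer CP190 neighbours than regions with Ibf when all peaks were counted. On the 4 large arms the medians were 15.6 kb (14.2 to 16.8, n = 1167) and 20.2 kb (17.7 to 22.8, n = 498), and 34.6% (31.9 to 37.4) against 28.5% (24.6 to 32.7) had another CP190 peak within 10 kb, beside 32.8% of all CP190 regions there. The median was lower without Ibf on each large arm. It was 14.2 against 21.7 kb on 3L, where the intervals did not overlap. It was 15.95 against 24.4 kb on 2L, 17.7 against 18.4 kb on 2R and 16.2 against 16.9 kb on 3R, where they did. Off X it was also lower within each tercile of CP190 peak width, at 16.5 against 25.2 kb for peaks up to 223 bp, 14.5 against 20.9 kb for peaks up to 314 bp and 16.5 against 22.6 kb for wider peaks, with overlapping intervals in each. Without peaks under 50 bp the medians were 15.6 kb without Ibf and 21.7 kb with Ibf. When CP190 peaks narrower than the median width of the list were left out, both as sites and as neighbours, the medians stood in the other order, at 38.4 kb (31.4 to 44.1, n = 465) without Ibf and 33.1 kb (29.2 to 38.5, n = 354) with Ibf. These intervals overlap widely, and the shares within 10 kb were then 15.9% and 16.4%. The difference in spacing was thus not seen when narrower peaks were left out as neighbours too, and it was not tested.

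**Figure D4:**
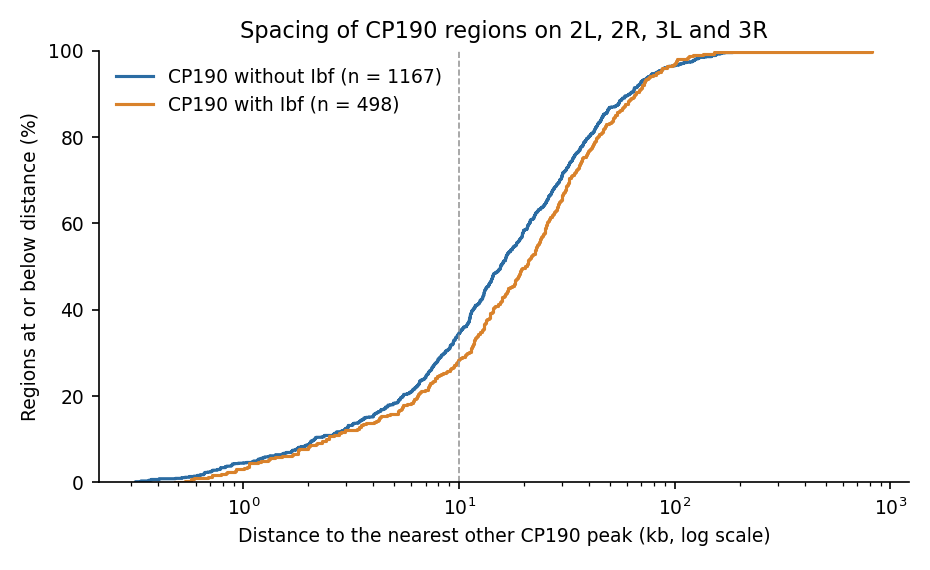
The lines show the percentage of CP190 regions on the 4 large arms whose nearest other CP190 peak lay at or below the distance on the x axis (kb, log scale), for regions without Ibf (blue) and with Ibf (orange), with a dashed line at 10 kb. At 10 kb the lines stand at 34.6% and 28.5%.

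Tight groups of CP190 regions without Ibf were small. When regions were chained at distances of up to 10 kb with no Ibf region between them, 311 of 1187 (26.2%) fell into 143 groups and 876 stood alone. Other CP190 regions were not grouped in this way, so these counts are not read as particular to the class. Groups of 2 numbered 120 and groups of 3 numbered 21, and 2 groups had 4, both on 2R. The first, from 18949991 to 18966896, held peaks of 255, 295, 330 and 192 bp over 16.9 kb and lay 60.3 kb from an Ibf peak. The second, from 20178575 to 20188386, held peaks of 238, 286, 203 and 229 bp over 9.81 kb, 12.2 kb from an Ibf peak. At the first called position of 2L, peaks of 273, 66 and 54 bp stood within 2.91 kb. The closest neighbours were on 3R at 26308601 to 26308893 and 26309209 to 26309490, 316 bp apart. On 3L, a peak of 45 bp stood 335 bp from its neighbour, the pair spanning 16486914 to 16487574, and peaks of 179 and 257 bp stood 365 bp apart from 9435290 to 9436089.

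The CP190 peaks of these regions fell into a main group and a smaller group of very narrow peaks. The width had a median of 251 bp (244 to 258, n = 1187), with quartiles of 166 and 312 bp, and the medians by large arm ran from 241.5 bp on 2L to 258 bp on 2R. In the main group, 367 peaks (30.9%) measured 250 to 324 bp. In the narrow group, 156 (13.1%) were under 75 bp, while the next 25 bp, from 75 to 99, held 30 (2.53%). Peaks under 50 bp numbered 98 (8.26%), against 6.23% over all CP190 regions off X, and in 6 the start equalled the end. At the other end, 70 (5.90%) were 400 bp or wider.

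Regions with Ibf had the same main mode and a longer upper tail. Between 250 and 324 bp lay 165 of their 547 CP190 peaks (30.2%), 28 (5.12%) were under 75 bp and 126 (23.0%) were 400 bp or wider, with a median of 321 bp. A wider peak meets an Ibf peak more readily, so width is not independent of the selection, and the difference carries no test. Of CP190 regions off X, those without Ibf made up 82.6% of the narrowest tercile, 72.9% of the middle tercile and 49.5% of the widest. Width did not order the distance to Ibf in the same way. The medians were 51.8 kb (43.3 to 61.1) in the narrowest tercile, 55.1 kb (46.9 to 62.8) in the middle tercile and 48.7 kb (42.1 to 57.0) in the widest, with overlapping intervals.

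**Figure D5:**
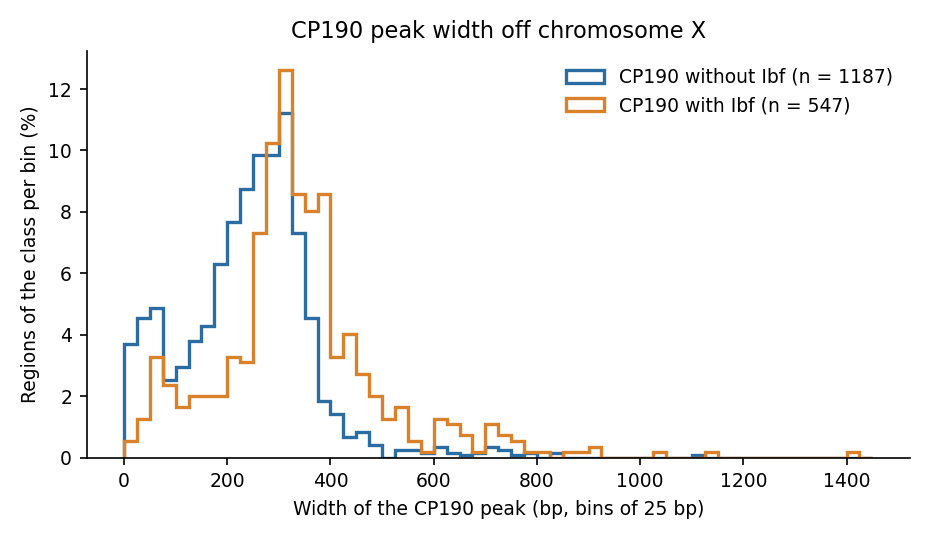
The lines give the percentage of CP190 peaks per 25 bp of width, for regions off X without Ibf (blue) and with Ibf (orange). Both peak between 300 and 324 bp, at 11.2% and 12.6%, while the regions without Ibf hold more peaks under 75 bp (13.1% against 5.12%) and fewer of 400 bp or wider (5.90% against 23.0%).

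The widest regions without Ibf differed in their surroundings. After the region of 1100 bp on 3L came 1 of 838 bp on 3R at 27046238 to 27047075, with an Ibf peak 681 bp away and another CP190 peak 590 bp away. A region of 833 bp on 3L at 967733 to 968565 had a CP190 neighbour at 706 bp and no Ibf peak within 220.3 kb. A region of 788 bp on 3R at 26352854 to 26353641 had a CP190 neighbour at 1.12 kb and its nearest Ibf peak at 101.8 kb. The widest on 2L, 777 bp at 17715408 to 17716184, stood 68.5 kb from CP190 and 68.6 kb from Ibf. The widest on 2R, 725 bp at 3776857 to 3777581, had CP190 at 1.95 kb and Ibf at 26.3 kb. Wide CP190 peaks without Ibf were thus found both beside an Ibf site and far from any.

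CP190 regions without Ibf on chromosome X were similar in density, made up a larger share of CP190 regions and lay farther from Ibf sites. They were 257 of 332 CP190 regions on X (77.4%, 72.5 to 81.8), against 68.5% (66.2 to 70.6) off X. The interval on X overlaps that of each large arm, and the difference was not tested. Their density was 11.6 per Mb, close to that on 2L, and the density of CP190 regions with Ibf on X was 3.40 per Mb, below that of each large arm. The median distance to the nearest Ibf peak on X was 90.2 kb (78.2 to 108.4), above the interval off X. The median distance to the nearest other CP190 peak was 20.5 kb (14.8 to 25.5), an interval that overlaps the 14.3 to 17.2 kb off X, and the median width was 278 bp (262 to 289) against 251 bp. The S2 line has a lower copy number of X than of autosomes, and the part of copy number in these values was not tested.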

How the data were processed

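The 3 deposited peak lists were used (CP190, CG8436, CG9740; 1 library each), and the Input library's reads were not analysed here. Genome build dm3 and CASAVA 1.8.2 are named per the submitters' processing notes. How reads were aligned and peaks called is not given in the sources used here. Per library, each deposited list holds chromosome, start and end, without score or header. Intervals were read as closed and positions are printed as deposited. Whether starts count from 0 or 1 is unknown. Symbols came from a RefSeq gene table (Release 6), whose coordinates were not used. No dm3 genome or annotation was used here, so genes and sequences are not given.

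Peaks sharing at least 1 bp were merged. A distance is the start of a peak minus the end of the one before it, a width the end minus the start plus 1. Shares carry 95% exact (Clopper-Pearson) intervals and medians 95% binomial order-statistic intervals. Both cover counting error only and treat regions as independent, which neighbours are not, so no p-value is given. Merging and distances were tested on simulated data. Named regions follow a written rule (widest, nearest to or farthest from Ibf or CP190, densest, longest runs). Because those farthest from Ibf or CP190 lay mostly in unplaced sequence, the text gives those on autosome arms, and it adds the closest CP190 neighbours and the regions on chromosome 4, all chosen after their values were seen. The regions, lists and measures were chosen with earlier results of these data known. Alternatives changed the overlap rule, the Ibf list, the sequences, the narrow peaks, the width minimum and the distance limit. Python 3.11.15, NumPy 2.4.6, SciPy 1.17.1 and matplotlib 3.10.9 were used.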

Additional observations from a re-analysis of the deposited data

How the results depend on the processing

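Of 41 values recomputed under an alternative, 32 stayed within the interval of the value reported (for counts, within 1.5 times, and for the spacing contrast, which has no interval, within the width of the interval of the median spacing), 8 moved and 1 reversed. Without the CP190 peaks under the median width of their list (278 bp), 473 regions remained (55.3% of CP190 regions off X), the median distance to the nearest other CP190 peak was 38.4 kb, 16.5% had one within 10 kb and the median width was 324 bp. Fewer peaks are left as neighbours by construction. The median spacing on the 4 large arms, regions without Ibf minus regions with Ibf, was -4.56 kb with all peaks, -6.02 kb without peaks under 50 bp and 5.25 kb under this alternative, where the intervals of both medians overlap widely. The cause was not tested. Leaving out peaks under 50 bp moved the median width to 262 bp. Another CP190 peak lay within 5 kb of 18.1% and within 20 kb of 57.8%. These limits define other shares than the 10 kb limit, and both values were counted as moved. No CP190 region off X held Ibf1 without Ibf2. The Ibf2 list alone thus returned the same 1187 regions, and its unchanged values say little about robustness. The contrast in spacing and its alternatives were added after seeing the data. No paired analysis was possible because each antibody has 1 library, and for the same reason no replicate could be left out.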
